A study of Mus musculus with 4 samples.

Results

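Imprinted genes are expressed mainly or only from the maternal or the paternal copy. Of 39 listed mouse imprinted genes, 34 had at least 1 probe set that the array's annotation assigned to that gene alone, with 66 probe sets in all among 22690 on the array. H19, Peg13, Zrsr1, Trappc9 and Ppp1r9a had no probe set of their own. For H19 and Snrpn, 5 further probe sets carried a second gene's symbol and were left out, so Snrpn was represented by 1 probe set only. The genes were measured on Affymetrix arrays, 1 array per sample, in neural stem cells of the ganglionic eminences, which are zones of the ventral forebrain that give rise to interneurons and early oligodendrocyte precursors. All cells came from mouse embryos of the C57/Bl6 background at embryonic day 14.5 and were cultured without serum in the presence of EGF. The groups are wild type (WT), with 1 array, and Olig1 KO, with 3, in which the gene for a transcription factor of the oligodendrocyte lineage is mutated. The allele is not described in the labels. KO replicates 2 and 3 are the samples numbered 37 and 38 in the titles. The labels leave unstated whether separate embryos or cultures gave the KO samples. The p-values thus rest on nothing but the spread between these arrays, and that spread may be technical in part. The sex-linked genes given below differ between KO replicate 1 and KO replicates 2 and 3, so these arrays do not all stem from 1 embryo. Whether KO replicates 2 and 3 do is not known.

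At an imprinted gene, the parental copies differ in DNA methylation laid down in the egg or sperm at an imprinting control region, and this mark is maintained in the embryo's cells. Imprinted genes lie in clusters in which maternally and paternally expressed genes share such a region. Many act on growth: several paternally expressed genes promote it, and several maternally expressed genes restrain it. In the developing brain, imprinted genes such as Cdkn1c, Plagl1 and Dlk1 are known to act on the proliferation and differentiation of neural progenitors. The arrays measure the sum over both parental copies, so they do not show which copy was expressed.

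The start-site sequences of these genes were searched for short motifs and for CG dinucleotides. RefSeq (GRCm38.p6) windows from 250 bases before to 50 bases after a transcript start were found for 31 of the 39 genes, 48 windows in all. TGCCGC, the 6-letter core recognised in methylated form by ZFP57, a zinc finger protein that protects imprints, was searched on both strands. It occurred in 11 of the 48 windows (22.9%), in 10 genes, and in 11.6% of all 32851 windows in the table. The 11 include overlapping Mest windows that share their matches. GCCATNTT, a core of the binding site of YY1, occurred on either strand in 3 of the 48 (6.25%) and in 6.05% of all windows. The median number of CG dinucleotides was 13 per window against 7 over all windows. TGCCGC itself holds a CG, and its share was not compared among windows of like CG content. A match is a description of the letters and not a bound site.

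Mest, Nnat and Nap1l5 are paternally expressed genes whose windows hold TGCCGC and whose signals were well above background. The Mest window, with 2 matches, is chr6:30737800-30738099 on the plus strand. The Nnat window, with 1 match, is chr2:157559828-157560127 on the plus strand. The Nap1l5 window, with 2 matches, is chr6:58907077-58907376 on the minus strand. Each window is given 5′ to 3′ on the strand of its gene, with TGCCGC or its reverse complement in capitals.
Mest: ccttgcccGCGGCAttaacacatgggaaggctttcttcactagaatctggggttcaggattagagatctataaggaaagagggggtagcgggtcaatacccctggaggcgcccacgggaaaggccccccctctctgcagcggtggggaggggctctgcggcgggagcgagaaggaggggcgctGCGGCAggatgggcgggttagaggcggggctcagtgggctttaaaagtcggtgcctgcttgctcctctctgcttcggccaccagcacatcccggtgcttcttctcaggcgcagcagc
Nnat: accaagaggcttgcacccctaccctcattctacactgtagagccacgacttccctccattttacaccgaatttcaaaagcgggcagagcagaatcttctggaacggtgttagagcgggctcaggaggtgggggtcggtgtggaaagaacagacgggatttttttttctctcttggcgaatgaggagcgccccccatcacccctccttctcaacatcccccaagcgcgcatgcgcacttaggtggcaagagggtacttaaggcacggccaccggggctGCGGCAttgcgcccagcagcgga
Nap1l5: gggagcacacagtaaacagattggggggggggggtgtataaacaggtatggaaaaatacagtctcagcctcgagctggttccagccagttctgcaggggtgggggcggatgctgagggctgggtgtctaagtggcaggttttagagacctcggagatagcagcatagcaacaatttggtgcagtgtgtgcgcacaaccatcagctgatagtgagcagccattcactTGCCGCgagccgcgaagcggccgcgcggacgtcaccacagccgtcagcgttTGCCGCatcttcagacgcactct

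Peg3 and Usp29 are paternally expressed neighbours that are transcribed in opposite directions from nearby starts. The Peg3 window is chr7:6730370-6730669 on the minus strand and that of Usp29 is chr7:6730333-6730632 on the plus strand. They overlap by 263 bases, over which the printed sequences are reverse complements of each other. Airn, a paternally expressed noncoding RNA that starts within Igf2r and runs antisense to it, had the widest measured difference between the genotypes among the 19 imprinted genes kept for the test, with WT at background, as given below. Its window is chr17:12741061-12741360 on the plus strand and holds 3 CG dinucleotides, against 34 in that of Igf2r. None of the Airn, Peg3 and Usp29 windows holds either motif, so no letters are in capitals.
Peg3: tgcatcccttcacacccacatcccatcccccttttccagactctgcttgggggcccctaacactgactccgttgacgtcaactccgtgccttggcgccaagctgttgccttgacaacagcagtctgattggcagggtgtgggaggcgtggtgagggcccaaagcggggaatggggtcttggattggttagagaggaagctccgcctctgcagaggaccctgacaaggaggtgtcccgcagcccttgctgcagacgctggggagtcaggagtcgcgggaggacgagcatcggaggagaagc
Usp29: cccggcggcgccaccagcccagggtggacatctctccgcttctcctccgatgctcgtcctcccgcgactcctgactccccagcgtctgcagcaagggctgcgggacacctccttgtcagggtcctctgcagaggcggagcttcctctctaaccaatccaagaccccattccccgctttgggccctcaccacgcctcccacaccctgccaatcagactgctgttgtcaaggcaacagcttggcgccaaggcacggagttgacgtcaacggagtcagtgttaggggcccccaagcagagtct
Airn: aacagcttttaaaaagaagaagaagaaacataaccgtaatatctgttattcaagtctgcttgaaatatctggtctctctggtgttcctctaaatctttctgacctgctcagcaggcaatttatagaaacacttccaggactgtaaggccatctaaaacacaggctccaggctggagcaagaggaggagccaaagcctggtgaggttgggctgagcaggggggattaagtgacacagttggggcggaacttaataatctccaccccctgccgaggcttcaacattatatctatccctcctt

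Signals are MAS5 intensities, linear in scale. All 4 arrays had a mean signal of 500.2 to 500.3 once 2% of probe sets were trimmed from each tail. Background is taken as the highest of 27 bacterial control probe sets with no target, array by array, and a signal no higher than that is given as at background. That limit was 30.5 in WT and 21.3, 39.99 and 87.8 in KO replicates 1, 2 and 3, so dim genes are least well measured in KO replicate 3. Differences are given as KO minus wild type on the log2(signal + 14.4) scale, where the changes of dim genes come out too small. Each gene is represented by the probe set whose mean was highest, and genes in the lowest 40% by mean were left out of the test. Signals of different probe sets are not compared with each other.

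The arrays also differed in ways that cut across the labels. Xist, made by the inactive X chromosome, was bright in WT (9480) and KO replicate 1 (8472) and far dimmer in KO replicates 2 (160.9) and 3 (46.5). Y-linked Eif2s3y was near 0 in WT (0.61) and KO replicate 1 (1.53) and bright in KO replicates 2 (653.8) and 3 (1160). The KO group thus holds a difference in sex, and no WT array has the Y-linked signal. Probe sets against 18S ribosomal RNA had the same split, with median signals of 4.64 and 7.24 against 946 and 2820. The beta-actin 3′/5′ ratio, which grows as RNA degrades, was 1.11 in WT and 1.25, 1.30 and 1.82 in the KO replicates. The same ratio for Gapdh, 0.759 in WT and 0.794, 1.03 and 0.842, was highest in KO replicate 2. Olig1 gave 7618 in WT and 3840, 4438 and 8548 in the KO replicates. What the allele lacks and where the probe set lies are not known here, so Olig1 does not check the labels. Of 8 neural stem cell markers 7 were above background in every array, among them Sox2, Nes and Vim.

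Of the 34 imprinted genes, 19 passed the filter on the mean and were tested. The other 15 were Asb4, Ascl2, Dcn, Dlk1, Magel2, Mkrn3, Peg10, Peg12, Phlda2, Slc22a18, Slc38a4, Snrpn, Tspan32, Usp29 and Zim1.

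No imprinted gene passed the test between the genotypes. In limma, at an adjusted p under 0.05, the count was 0 of the 19 in each direction, as for all 7436 genes tested (0% called higher, 0% called lower), and the adjusted p was 0.99997 for each of the 19. At an unadjusted p under 0.05, 1 of the 19 was higher (Airn), against 1.32% of all genes, and 0 were lower, against 0.941%. All 3 KO arrays lay above WT for 7 of the 19 genes (36.8%; 23.2% of all genes) and below it for 5 (26.3%; 20.6% of all genes). The 7 were Airn, Igf2, Igf2r, Impact, Meg3, Ndn and Ube3a, and the 5 were Cd81, Copg2, Mest, Nnat and Plagl1. The median difference over the 19 genes was 0.055, beside 0.00 over all genes. Array by array, that median was 0.045, 0.069 and 0.205 in KO replicates 1, 2 and 3.

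**Figure D1:**
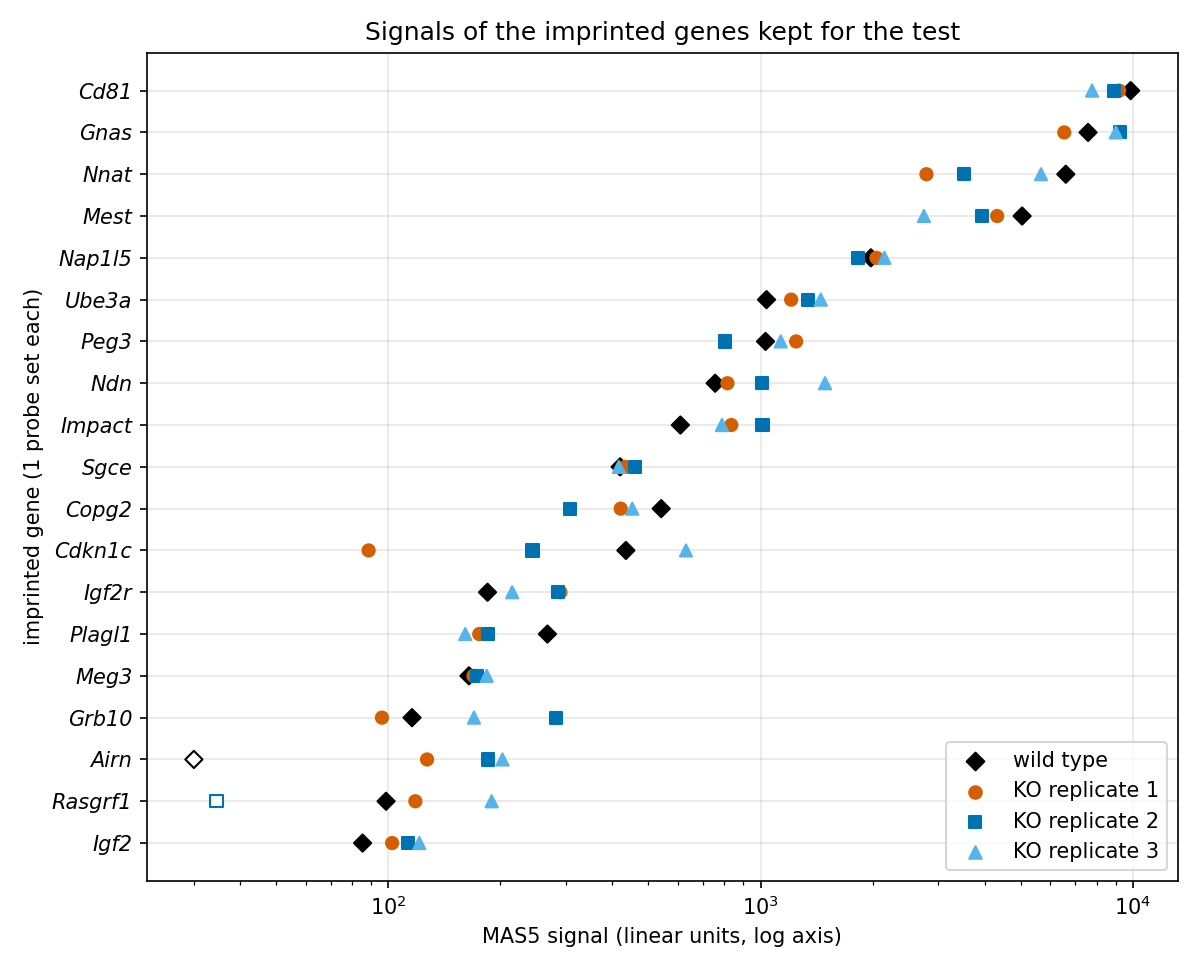
MAS5 signal (log axis) of the 19 imprinted genes kept for the test, 1 probe set per gene and 1 point per array; open points are at background, and genes are sorted by mean signal only to space them. Airn is the gene whose WT point (30.02) stands farthest from all 3 KO points (127.1 to 202.5), and Cdkn1c and Rasgrf1 are the genes whose KO points spread most.

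**Figure D2:**
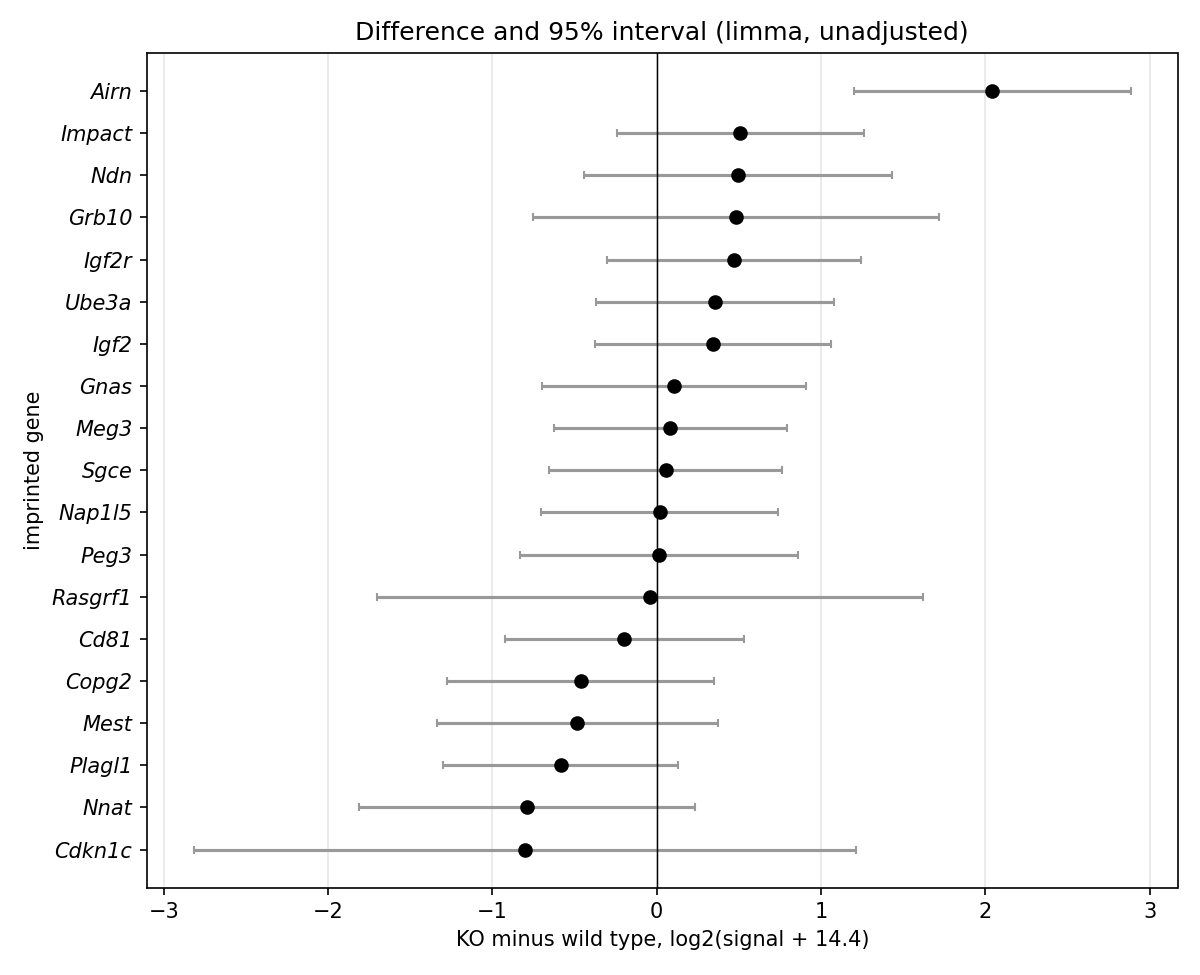
Difference between the 3 KO arrays and WT on the log2(signal + 14.4) scale for the same 19 genes, with limma's unadjusted 95% interval. The interval leaves out 0 for Airn only (1.20 to 2.89), whose WT signal was at background, and no gene passed after adjustment over 7436 genes.

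Airn and Igf2r lie at the same locus, where transcription of Airn from the paternal copy silences Igf2r on that copy in many tissues. The Airn signal was 30.02 in WT and 127.1, 185.1 and 202.5 in KO replicates 1, 2 and 3. WT was thus at background and all 3 KO arrays were above it, with no overlap. With WT set at its background limit and the KO signals as measured, the KO mean was 4.07-fold higher on the scale with the pseudocount. That value leaves out the spread of the KO arrays and is not a minimum. With WT at background, the difference has no exact size. As measured it was 2.04 (SE 0.36, limma unadjusted p = 0.000663, adjusted p = 0.99997). Airn was the only 1 of the 19 tested genes at least 2-fold higher in all 3 KO arrays (0.161% of all genes), and 0 were at least 2-fold lower in all 3 (0.121% of all genes). Airn passed the filter on the mean through the KO arrays, in which it is high, so its count, its p-value and its place as the widest of the imprinted genes, known before from these data, are a description. In such bulk samples, fewer cells that express a gene and less RNA per cell cannot be told apart.

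Igf2r, the receptor that takes up IGF2 for breakdown and so restrains growth, had 2 probe sets above background in all arrays. The brighter one gave 184.7 in WT and 289.9, 285.2 and 215.1 in the KO replicates. All 3 KO arrays were above WT, with a difference of 0.47 (SE 0.33, limma adjusted p = 0.99997). The other gave 134.9 against 147.5, 124.0 and 165.9, with WT inside the KO range.

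At the Igf2 and H19 locus and the neighbouring Kcnq1 domain, Igf2, Cdkn1c and Cd81 were kept. Igf2, the fetal growth factor, gave 85.3 in WT and 102.4, 112.9 and 121.1 in the KO replicates. The KO arrays lay above WT by 0.34 (SE 0.31). The signal is dim, and in KO replicate 3 the background limit was 87.8. Its second probe set was at background in all 4 arrays. The summed signal of 8 markers of meninges and fibroblasts was 291.2 in WT and 435.8 to 485.3 in the KO arrays. These are other sources of Igf2 in the embryonic head. Of the 8, 4 were higher in all KO arrays: Foxc1, Aldh1a2, Col3a1 and Postn. Only 1 of the 8, Foxc1, passed the filter. The share of 23.2% over all genes tested is thus not a like measure for this count. Of the 4, only Foxc1 was above background in every array, and Col3a1 (29.5) and Postn (6.55) were at background in WT. Of all 8 markers, Foxc1 and Col1a2 were above background in every array, and Aldh1a2 and Pdgfrb were at background in all 4. Foxc1 gave 83.9 in WT and 208.0, 153.0 and 93.3 in the KO replicates. Col1a2 gave 107.5 against 75.4, 74.4 and 126.2, so the sum does not hold for each marker, and in KO replicate 3 it includes signals at background, such as Lum (71.4) and Col3a1 (59.8). Their part in the Igf2 signal was not tested.

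Cdkn1c, which encodes the cyclin-dependent kinase inhibitor p57 and takes progenitors out of the cell cycle, varied more among the KO arrays than almost any gene. It gave 434.8 in WT and 88.5, 243.8 and 630.5 in KO replicates 1, 2 and 3. WT thus lay between KO replicates 2 and 3. The SD of its log2 values over the KO arrays was 1.32, at percentile 99.6 of the 7436 genes, and the genotype difference was -0.80 (SE 0.86). That difference was -0.14 without KO replicate 1, -1.46 without KO replicate 3 and -2.13 with the array pair as a block. The last value is KO replicate 1 minus WT, 1 array against 1. Its order over the arrays, from KO replicate 1 through KO replicate 2 and wild type to KO replicate 3, was shared by 4.05% of all genes. Among the markers of other cell types that were kept for the test, Olig1, Mbp, Aqp4, Slc1a2 and Otx2 had the same order. Of the markers left out of it, only Snap25, C1qb and Pdgfrb had it too, each at background in at least 1 array. Mbp, a myelin gene, gave 53.2, 123.7, 173.5 and 224.4 in that order, and Otx2, a gene of the choroid plexus, gave 75.1, 140.9, 308.9 and 392.5. The counts were 2 of 5 kept oligodendrocyte lineage markers, 2 of 4 astrocyte markers and 1 of 1 choroid plexus marker, each over the kept genes. They were 0 of 3 neuron markers, 0 of 8 neural stem cell markers, and 0 of 1 each for meninges and fibroblasts, endothelium and microglia. Of the choroid plexus markers left out, Folr1 gave 72.8 in WT and 77.4, 122.7 and 89.4 in the KO replicates, without that order. Ttr and Kl did not have it either. The part of other cell types in the Cdkn1c signal was not tested.

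Cd81, a tetraspanin gene imprinted in the placenta, gave 9875 in WT and 9197, 8925 and 7778 in the KO replicates. All KO arrays were lower, with a difference of -0.20 (SE 0.31). Phlda2, a growth restraint gene of the placenta, was above background only in KO replicate 1 (42.8). Slc22a18, a transporter gene, was above background only in WT (34.8) with 1 probe set. That probe set gave 35.6 in KO replicate 3, under the higher background limit of that array (87.8). Ascl2 and Tspan32 were at background in all arrays with every probe set.

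In the Prader-Willi and Angelman domain, Ndn and Ube3a were kept. Ndn encodes necdin, a MAGE-family protein that restrains proliferation in neurons, and is expressed from the paternal copy. Its tested probe set gave 755.2 in WT and 815.0, 1009 and 1491 in KO replicates 1, 2 and 3. All KO arrays were higher, with KO replicate 1 close to WT, and the difference was 0.50 (SE 0.40). It was 0.26 without KO replicate 3. With WT and KO replicate 1 as 1 block and KO replicates 2 and 3 as the other it was 0.11, which is KO replicate 1 minus WT alone. Of 8 Ndn probe sets, 5 were above background in every array, and in each of these KO replicates 2 and 3 were both above WT and KO replicate 1. The largest genotype difference, 0.92, was in a probe set with 373.8 in WT and 348.3, 879.1 and 1211 in the KO replicates. There and in 1 other of the 5, KO replicate 1 was below WT, so WT lay within the KO range. Both are of a type that can cross-hybridise. The tested probe set is not of that type, nor is another that gave 522.6 in WT and 622.6, 1059 and 879.2 in the KO replicates. The 3 dimmer probe sets did not exceed background in KO replicate 3. Of them, 1 had KO arrays all lower, at 81.5 in WT and 61.9, 58.3 and 45.9 in the KO replicates. Another had KO arrays all higher, at 49.5 against 81.0, 100.7 and 76.8. The 5 brighter probe sets split by the array pairs seen with Xist and 18S RNA, whose part in the Ndn signals was not tested.

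Ube3a, the ubiquitin ligase gene that is expressed from the maternal copy in neurons, had 4 probe sets above background in all arrays, and they did not show 1 direction. The tested one gave 1038 in WT and 1209, 1345 and 1452 in the KO replicates, a difference of 0.36 (SE 0.31). A second gave 379.9 against 327.0, 234.9 and 154.9, and another gave 351.3 against 264.0, 152.6 and 168.4. Both lay below WT in all KO arrays, by differences of -0.70 and -0.84. The fourth had WT (180.9) within the KO range (173.0 to 286.8). When its probe sets were averaged, Ube3a differed by -0.25, so its direction depends on the probe set.

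The other members of this domain were dim. Mkrn3, a makorin RING finger gene, gave 108.9 in WT and 70.2, 53.1 and 72.02 in the KO replicates, at background in replicate 3. Magel2, a MAGE-family gene, gave 85.2 against 43.9, 89.8 and 68.2, again at background in replicate 3. Peg12 gave 72.5 against 92.1, 82.6 and 89.2, with all KO arrays higher and replicate 3 just above its background limit. The only Snrpn probe set of its own was at background in all 4 arrays, while the probe sets that it shares with Snurf were not used.

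In the Peg3 domain, Peg3, a paternally expressed zinc finger gene that affects fetal growth and maternal care, was measured by 3 probe sets above background in every array. The tested one gave 1031 in WT and 1247, 802.3 and 1133 in the KO replicates. WT lay within the KO range, and the difference was 0.016 (SE 0.36). A second probe set gave 769.3 against 941.2, 1234 and 1192, with all KO arrays higher. The third gave 293.1 against 277.1, 196.7 and 193.0, with all KO arrays lower. Usp29, a deubiquitinase gene that shares the start region printed above, gave 49.8 against 60.1, 56.9 and 80.3 with its brighter probe set, at background in KO replicate 3. Its other probe set went the other way, at 51.5 in WT and 3.07, 13.4 and 43.6 in the KO replicates, at background in all KO arrays. Zim1, a maternally expressed zinc finger gene, gave 31.9 against 13.3, 20.1 and 93.5, at background in KO replicates 1 and 2.

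**Figure D3:**
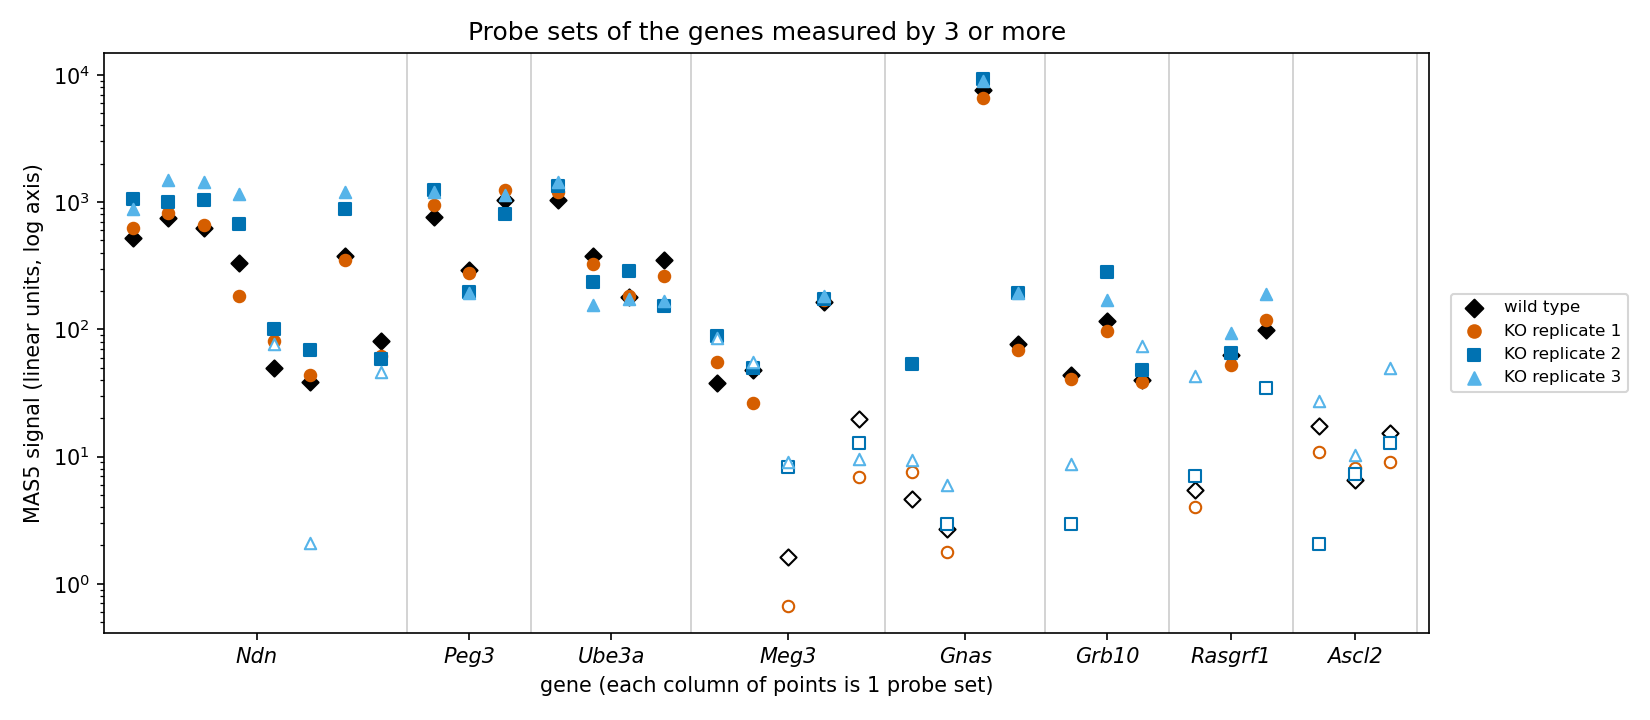
MAS5 signal (log axis) of every probe set of the 8 imprinted genes with 3 or more probe sets, 1 point per array, open where the signal is at background. In the 5 brighter Ndn probe sets, KO replicates 2 and 3 (squares and triangles) lie above wild type and KO replicate 1, while the probe sets of Peg3 and Ube3a differ in direction.

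At the Dlk1 and Meg3 locus, Meg3, a maternally expressed noncoding RNA, was measured by 5 probe sets. The brightest, of a type that can cross-hybridise, gave 164.7 in WT and 169.3, 173.4 and 183.8 in the KO replicates. These signals span a narrow range, and the difference was 0.084 (SE 0.30). A second gave 38.2 against 55.7, 89.3 and 84.8, at background in KO replicate 3. Another gave 47.6 against 26.5, 49.5 and 55.6, also at background there, and the remaining pair of probe sets were at background in all arrays. Dlk1, a transmembrane relative of the Notch ligands that is expressed from the paternal copy, gave 65.6 against 77.8, 95.8 and 84.7. Its KO arrays were all higher than WT, but KO replicate 3 was at background.

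Sgce and Peg10 are paternally expressed neighbours on chromosome 6. Sgce, the epsilon-sarcoglycan gene, was among the steadiest imprinted genes, at 419.6 in WT and 433.3, 460.7 and 416.0 in the KO replicates, a difference of 0.055 (SE 0.30). Peg10, a gene derived from a retrotransposon, gave 218.3 in WT and 249.3, 55.3 and 6.16 in KO replicates 1, 2 and 3. Its signal was similar in WT and KO replicate 1, lower in KO replicate 2 and at background in KO replicate 3. It fell under the filter, and in the fit with no filter it differed by -1.69 (SE 1.36, limma adjusted p = 0.99997). Asb4, a maternally expressed gene of the same domain, gave 88.9 against 23.3, 64.8 and 59.8 with its brighter probe set, with all KO arrays lower and replicate 3 at background.

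Mest and Copg2 are neighbours, and the start of Mest is printed above. Mest, a paternally expressed gene of the alpha/beta hydrolase family, gave 5045 in WT and 4324, 3946 and 2748 in the KO replicates. All KO arrays were lower, with replicate 3 the lowest, and the difference was -0.48 (SE 0.36). It was -0.29 without KO replicate 3 and -0.22 with the array pair (WT with KO replicate 1, KO replicate 2 with 3) as a block. The last value is KO replicate 1 minus WT alone. The signals fall in the order in which the beta-actin 3′/5′ ratio grows, though not that of Gapdh, and its part was not tested. Copg2, a coatomer subunit gene, gave 540.9 against 421.0, 307.3 and 452.4, a difference of -0.46 (SE 0.35), or -0.30 without KO replicate 2. Neither difference passed the test.

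Nnat, Plagl1 and Impact were the kept single-locus genes in which the KO arrays all lay on 1 side of WT. Nnat encodes neuronatin, a small membrane protein of developing neural tissue, and its window is printed above. It gave 6612 in WT and 2792, 3526 and 5672 in KO replicates 1, 2 and 3. The KO arrays were all lower, but KO replicate 3 was nearer to WT than to the other KO arrays. The difference was -0.79 (SE 0.44), or -1.24 with the array pair as a block, which is KO replicate 1 minus WT alone. Plagl1, a zinc finger transcription factor gene that regulates other imprinted genes, gave 267.6 against 175.5, 185.4 and 160.9. Here the KO arrays stood close together, below WT by a difference of -0.58 (SE 0.30, limma unadjusted p = 0.0951), in a probe set of the type that can cross-hybridise. In no array did its other probe set exceed background. Impact, a regulator of translation through the kinase GCN2, gave 609.1 against 834.4, 1012 and 787.6, a difference of 0.51 (SE 0.32).

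Gnas, Grb10, Nap1l5 and Rasgrf1 had WT within the KO range. Gnas, which encodes the stimulatory G protein alpha subunit among several transcripts, gave 7587 in WT and 6548, 9223 and 9010 in the KO replicates with its brightest probe set. Another Gnas probe set gave 76.3 against 69.2, 192.4 and 191.6. Both of these had KO replicates 2 and 3 above the other arrays, and which Gnas transcripts they detect is not known here. Grb10, an adaptor that restrains insulin and IGF receptors, gave 115.8 against 96.1, 282.1 and 169.9. It showed the same split with its tested probe set, while a dimmer one showed the reverse, at 43.4 against 40.7, 2.92 and 8.76, at background in KO replicates 2 and 3. Its remaining probe set gave 40.2 against 38.2, 48.1 and 73.4, at background in KO replicate 3. Nap1l5, a nucleosome assembly protein gene, was steady at 1980 against 2049, 1825 and 2152. Rasgrf1, a Ras exchange factor gene, gave 98.6 against 118.2, 34.5 and 189.5, at background in KO replicate 2, and its KO spread was at percentile 98.9 of all genes. Its second probe set had 63.1 against 52.1, 65.2 and 94.3. Dcn, which encodes decorin, a matrix proteoglycan, was at background in WT (7.56) and KO replicate 1 (10.9) and above it in KO replicates 2 (46.7) and 3 (125.6). Slc38a4, an amino acid transporter gene, was at background in all arrays.

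The split between array pairs was set beside the genotype split. KO replicates 2 and 3 both lay above WT and KO replicate 1 for 7 of the 19 genes (36.8%; 24.8% of all genes) and below both for 2 (10.5%; 25.8% of all genes). The 7 were Airn, Gnas, Grb10, Igf2, Meg3, Ndn and Ube3a, and the 2 were Cd81 and Mest. Of these, Airn, Igf2, Meg3, Ndn and Ube3a were also among the genes higher in all KO arrays. The pair of WT and KO replicate 1 holds both genotypes without that split, but it is 1 array against 1 and has no replicate check. Between them, 3 of the 19 genes were at least 2-fold apart (15.8%; 1.87% of all genes). Airn was higher in KO replicate 1 by 1.67, and Nnat and Cdkn1c were lower, at -1.24 and -2.13. With WT at background, the Airn value is not an exact size. Airn passed the filter through the KO arrays, so its place in these counts is a description. Within the other pair, 2 of the 19 genes, Cdkn1c and Rasgrf1, were at least 2-fold apart (10.5%; 5.27% of all genes), and both were higher in KO replicate 3. The median SD over the KO arrays was 0.276 for the 19 genes and 0.272 for all genes.

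**Figure D4:**
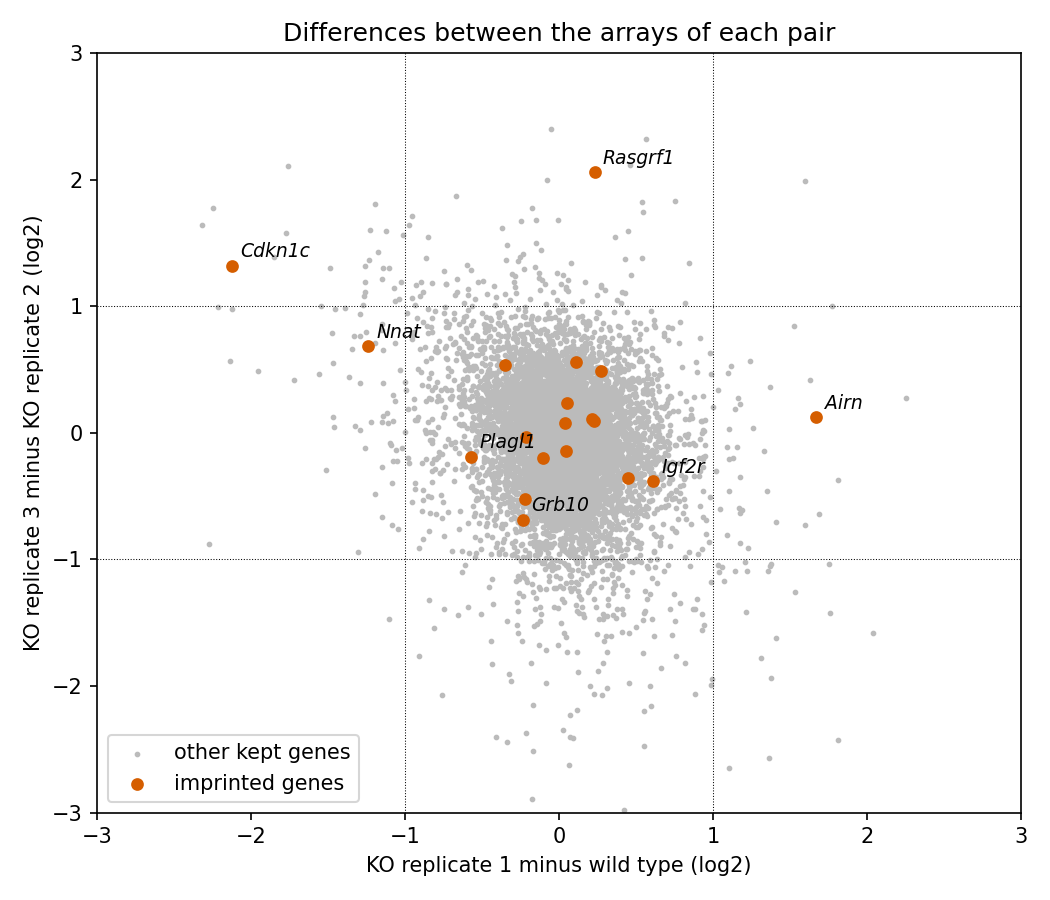
Log2 difference of KO replicate 1 from WT (horizontal) and of KO replicate 3 from KO replicate 2 (vertical) for 7436 genes in grey and the 19 imprinted genes in orange; dotted lines mark 2-fold. Cdkn1c is past 2-fold on both axes (-2.13 and 1.32), Airn and Nnat on the horizontal axis only, and Rasgrf1 on the vertical axis only.

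Split by the copy known to be expressed, the kept genes overlapped in their differences, leaving out Gnas, whose transcripts come from either copy. Over all genes, 23.2% had all KO arrays above WT and 20.6% had them below it. Of 7 genes with maternal expression in at least some tissue, 3 had all KO arrays above WT and 2 had them below it (median 0.084, from -0.80 to 0.48). Of 11 paternally expressed genes, 4 were higher and 3 lower (median 0.018, from -0.79 to 2.04). Of 3 kept growth restraint genes, 1 was higher in all KO arrays, and of 5 kept growth promotion genes, 1 was higher and 2 were lower. Members of 1 domain share a control region and are not independent of each other.

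Genes around the imprinted genes were read from lists, again with 0 called in limma in each direction. Of 43 other imprinted genes, 11 were kept, with all KO arrays above WT for 2 (23.2% of all genes were) and below WT for 1 (20.6% of all genes were), with a median of -0.0080 and differences from -0.31 to 0.32. Mcts2, a translation factor gene, differed by 0.32 (SE 0.30) and Qpct, a glutaminyl cyclase gene, by -0.26 (SE 0.33). Of 26 genes linked to placing, maintaining or removing imprints, 16 were kept. All KO arrays lay above WT for 2 of the 16 and below it for 2, with a median of 0.029. Ctcf, the insulator protein gene that binds the H19 control region, gave 693.2 in WT and 1080, 991.8 and 851.6 in the KO replicates, a difference of 0.48 (SE 0.32). Dnmt1, the maintenance methyltransferase gene, gave 921.7 against 1115, 666.2 and 374.6, a difference of -0.49 (SE 0.56) with WT inside the KO range. Zfp57 was above background in WT only, at 83.5 against 8.05, 12.0 and 61.0. The last of these lay under the high background limit of KO replicate 3 (87.8).

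Of 26 genes of IGF and insulin signalling, 17 were kept, with all KO arrays above WT for 3 (23.2% of all genes were) and below it for 8 (20.6% of all genes were), with a median of -0.012. Foxo3, a transcription factor gene restrained by the pathway, gave 219.0 in WT and 365.0, 412.2 and 535.3 in the KO replicates. It differed by 0.94 (SE 0.34, limma unadjusted p = 0.0282, adjusted p = 0.99997). The IGF-binding protein gene Igfbp3 gave 4570 against 3749, 1905 and 1049, and Igfbp4 gave 8466 against 7443, 4797 and 3589. For both, KO replicate 1 was the KO array nearest to WT and replicate 3 the farthest, with differences of -1.22 (SE 0.63) and -0.75 (SE 0.44). The beta-actin 3′/5′ ratio had the reverse order of the arrays, and that of Gapdh did not. Their part in these differences was not tested.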

How the data were processed

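Neural stem cells of 1 wild-type and 3 Olig1 KO samples were measured on 1 Affymetrix array each. The authors deposited MAS5 intensities, per the submitters' processing notes, on a linear scale; which MAS5 version and scaling target they used is not stated in the labels. Symbols came from the platform's annotation, updated through gene identifiers in RefSeq GRCm38.p6: 20393 probe sets had 1 symbol, 691 several and 1606 none. Probe set positions were not used here. The imprinted genes and all lists were chosen with earlier results of these data known.

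Signals were turned into log2(signal + 14.4), the pseudocount being 0.1 times the median signal. The probe set with the highest mean represented a gene, and the lowest 40% of genes by mean were left out. The genotypes were compared with limma 3.58.1 in R 4.3.3 by two-sided tests, and p-values were adjusted by Benjamini-Hochberg over 7436 genes. Only the KO arrays show a spread (2 residual degrees of freedom, with 5.23 more from the prior), which the fit also assigns to WT, so that precision is limited by the number of arrays. The fit was tested on simulated data. Every imprinted gene with its own probe set is described, and of other lists up to 4 kept genes by moderated t were eligible to be named. Genes named for sharing the order of Cdkn1c, the meninges markers and Zfp57 were chosen after their values were seen. Alternatives covered scaling, pseudocount, filter, probe sets, eBayes settings, each KO array left out and the array pair as a block.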

Additional observations from a re-analysis of the deposited data

How the results depend on the processing

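No imprinted gene was called under any of the 13 alternatives. There was 1 WT array, and a missed threshold does not show that levels were equal. Over all genes, 2 were called without KO replicate 1 and 0 otherwise (range 0 to 2 over the arrays left out). The genes called without KO replicate 1 were Eif2s3y and Tmem87a. Eif2s3y is the Y-linked gene whose signals, given above, set KO replicates 2 and 3 apart from WT and KO replicate 1. Without a filter, 11 of 34 imprinted genes were higher and 8 lower in all KO arrays. With 60% of genes left out, 3 of 11 were higher. With every probe set tested on its own, 8 of 30 probe sets were lower. These counts follow the number of genes or probe sets tested. Each of the 19 genes was tested in 11 to 13 of the alternatives, 234 values in all. The direction held in those run for 13 genes and turned for 6, in 10 values, and the cause was not tested. Under other filters, other eBayes settings or every probe set on its own, the tested probe set keeps its main estimate. The direction could not turn there, so these counts say little about stability. Other probe sets of a gene do not enter them: those of Ube3a gave -0.70, -0.84 and 0.20, and those of Peg3 gave 0.53 and -0.40. Gnas gave -0.077 after quantile normalization. With the array pair as a block, Gnas gave -0.21, Grb10 -0.24 and Rasgrf1 0.23. Rasgrf1 also gave 0.024 with 4 times the pseudocount and 0.54 without KO replicate 2. With each KO array left out, Nap1l5 ranged from -0.034 to 0.084, Peg3 from -0.11 to 0.20 and Rasgrf1 from -0.49 to 0.54. Peg3 turned without KO replicate 1 and without KO replicate 3 (-0.043), and Nap1l5 without KO replicate 3. Ube3a gave -0.25 with the mean of its probe sets. Airn ranged from 1.37 to 2.45 over 12 alternatives (adjusted p 0.324 to 0.99999) and was dropped with 60% of genes left out. Cdkn1c and Nnat were lower at an unadjusted limma p under 0.05 without KO replicate 3 and with the array pair as a block, the 2 of the 19 genes that were; the adjusted p of both was at least 0.813 over the alternatives run. The labels give the groups no shared replicate numbers, so the block was the array pair seen in Xist and control signals, with 1 residual degree of freedom. With that block, the KO difference equals KO replicate 1 minus WT, 1 array against 1. KO replicates 2 and 3 enter only its SE, so its values and p-values have no replicate check.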
